A study of Mus musculus with 2 samples.

Results

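The 38 genes described here belong to the interferon response and to MHC class I antigen presentation, and form a list of named genes: the rule matches probes by symbol and uses no measured value, although the list was drawn up with earlier results of these data known. A probe carrying the gene's current or older symbol was found for 31 of the 38, each with 1 probe, and 29 of the 38 were detected in all 4 hearts, of 16391 genes with a probe and 11701 detected in all 4 hearts. The 7 genes with no probe carrying their symbol in the annotation used here were H2-K1, H2-D1, Psme2, Isg15, Ifi47, Igtp and Xaf1. H2-K1 and H2-D1 encode the heavy chains of the class I molecule, so that its light chain, B2m, was the only chain of it that was measured among these genes.

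Whole hearts of male mice on the C57BL/6J background, 6 months old, were compared on 2 two-colour arrays. The hearts were a knockout heart after caloric restriction (CR), a knockout heart after free feeding (AL), a control heart after CR and a control heart after AL, 1 heart of each kind, and restriction by 40% or free feeding had lasted 3 months. Knockout mice lacked the deacetylase Sirt1 in their cardiomyocytes only, and control mice were the corresponding controls. The labels name no Cre driver, and every other cell type of the heart was left with the gene. On both arrays the CR heart carried Cy3 and the AL heart Cy5, so that diet and dye cannot be told apart within an array, nor genotype and array between the arrays. With 1 heart per condition no difference has a replicate check and no p-value is given: every value describes these 4 hearts.

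Interferons are secreted proteins that warn cells of infection. Type I and type II interferons bind receptors at the cell surface whose kinases activate STAT proteins, and Stat2 and Irf9 are subunits of the factor ISGF3, which binds the interferon-stimulated response element (ISRE) before its target genes. The gamma-activated site (GAS) is the element known for the response to interferon gamma. Class I molecules show peptides made by the proteasome to CD8 T cells: interferon exchanges the catalytic subunits of the proteasome for Psmb8, Psmb9 and Psmb10, the transporter of Tap1 and Tap2 brings the peptides into the endoplasmic reticulum, and tapasin (Tapbp) holds the transporter close to the empty class I molecule. In the heart, resident macrophages, endothelium and fibroblasts use this machinery as well as the muscle cells.

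The bases before the start of B2m, Psmb8 and Ifit3 are shown because B2m and Psmb8 gave the widest spread over the hearts together with Tap2, and because Ifit3, an antiviral protein, holds a pair of ISRE cores and was the effector with the greatest genotype difference under AL. The sequences are those of RefSeq on GRCm38.p6, 250 bases each, 5′ to 3′ on the plus strand, at chr2:122147437-122147686 for B2m, chr17:34197945-34198194 for Psmb8 and chr19:34583279-34583528 for Ifit3. Capitals mark an ISRE core in B2m and Ifit3 and a GAS in Psmb8.
B2m: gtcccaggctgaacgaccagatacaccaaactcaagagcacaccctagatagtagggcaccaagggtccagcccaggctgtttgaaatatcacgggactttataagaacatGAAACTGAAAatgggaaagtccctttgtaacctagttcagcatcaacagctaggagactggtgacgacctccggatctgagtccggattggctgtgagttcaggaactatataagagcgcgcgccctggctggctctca
Psmb8: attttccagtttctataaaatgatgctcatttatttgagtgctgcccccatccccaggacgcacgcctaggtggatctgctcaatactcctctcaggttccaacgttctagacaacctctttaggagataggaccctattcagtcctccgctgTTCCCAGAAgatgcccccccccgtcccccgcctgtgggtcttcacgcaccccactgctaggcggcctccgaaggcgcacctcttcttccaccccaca
Ifit3: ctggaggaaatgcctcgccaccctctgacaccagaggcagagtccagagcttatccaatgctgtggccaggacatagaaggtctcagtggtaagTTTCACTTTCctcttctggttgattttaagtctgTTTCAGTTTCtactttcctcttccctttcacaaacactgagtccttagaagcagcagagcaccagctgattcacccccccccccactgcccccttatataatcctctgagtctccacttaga
The ISRE core was searched as GAAANNGAAA and the GAS as TTCNNNGAA, on both strands, in windows of 300 bases around gene starts. The ISRE core of B2m began 139 bases before the start and the GAS of Psmb8 97 bases before it. The ISRE cores of Ifit3, on the minus strand, began 156 and 122 bases before the start. Windows were given for 27 of the 31 measured members, and not for Tap2, Usp18, Mx1 and Mx2. An ISRE core was present in 13 of these 27 genes (43.3% of their 30 windows, against 3.44% of all 32851 windows), and a GAS in 7 (23.3% of windows, against 8.3% of all). Among the 7 class I genes with a window, B2m and Psme1 held an ISRE core and Psmb8 a GAS. A match describes letters in a window and not binding. Psmb9, Tap1, Psmb8 and Tap2 lie next to each other on chromosome 17, and the windows of Psmb9 and Tap1, which point away from each other, share 275 bases.

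Signals are given as log2 of the normalized spot intensity, and comparisons as differences of log2 values, where 1 stands for a doubling and 0.585 for 1.5-fold. The positive controls, printed as 24 spots each, had an SD of the log2 ratio between channels of 0.04 to 0.09, which describes spots and not mice. A member's level can be read across hearts, not against another member's, because probes differ. Most members were dim, as were most probes: 19 of 31 members never exceeded the blank spots by 100 scanner units, and B2m and Psme1 alone exceeded them by 1000. The median detected probe exceeded them by 40.5 (knockout CR), 34.1 (knockout AL), 41.8 (control CR) and 30.0 (control AL) units. Of the 29 members detected in every heart, 17 lay at or above the median signal of all genes so detected. The processing compresses differences, most for dim genes. The Sirt1 probe had log2 signals of 7.51 (knockout CR), 7.07 (knockout AL), 7.53 (control CR) and 7.11 (control AL), and differed between the genotypes by -0.02 under CR and -0.04 under AL, within the spread of the control spots. Where that probe lies in the gene is not given here, so that it checks nothing, and knockout means labelled knockout throughout.

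Across the members, the knockout AL heart stood highest most often. Of the 29 members detected in every heart, 17 had their highest signal in the knockout AL heart, against 24.5% of all genes. The control AL heart held the lowest signal of 15 of the 29, against 29.1% of all genes. The knockout CR heart was highest for 4 members, the control CR heart for 7 and the control AL heart for 1, against 27.7%, 21.6% and 26.2% of all genes. These counts come from the same 4 hearts as the comparisons that follow.

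**Figure D1:**
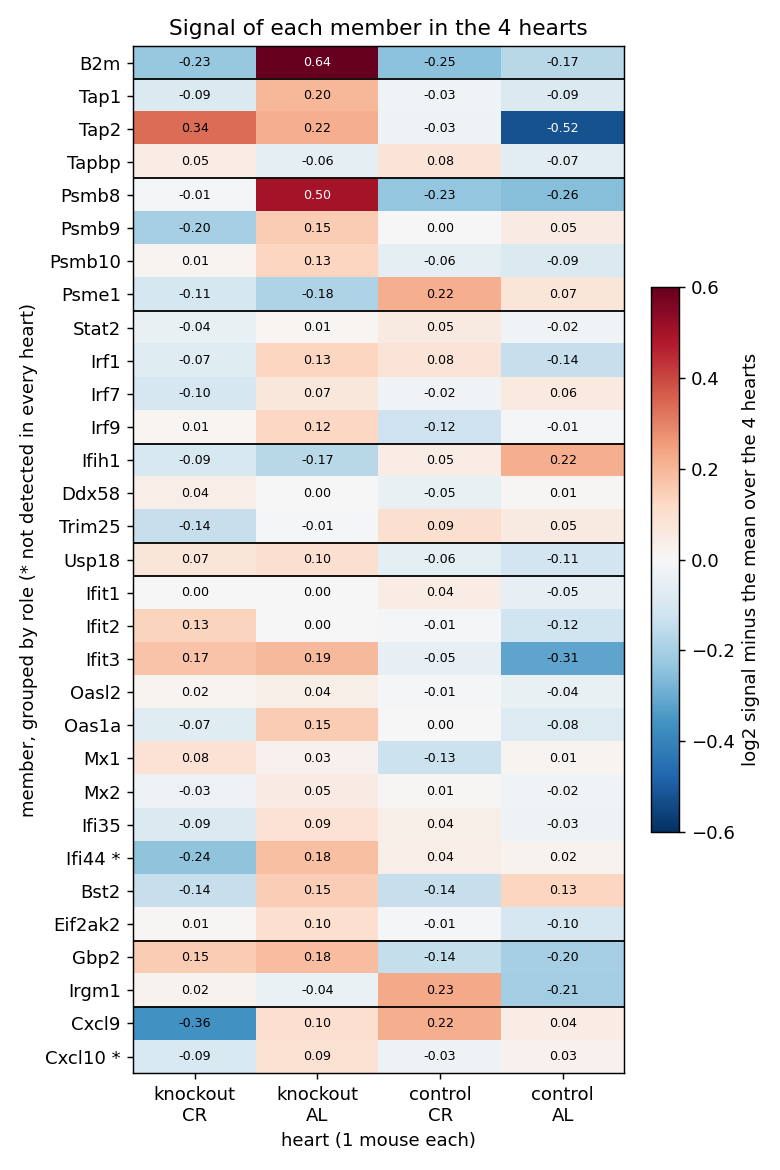
Log2 signal of each of the 31 measured members in the 4 hearts (columns, 1 mouse each), minus the member's own mean over the 4 hearts. Colour and printed number give the same value, lines separate roles, and an asterisk marks members not detected in every heart. B2m (0.64) and Psmb8 (0.50) are darkest in the knockout AL heart and Tap2 (-0.52) in the control AL heart.

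As reported, the members past 1.5-fold in any comparison were B2m, Psmb8 and Tap2 of class I presentation and the chemokine Cxcl9. The share of all genes past it in any comparison was not counted. Of the 8 class I genes 7 lay at or above the median signal of the genes detected in all hearts. Of the 10 effectors detected in every heart 2 did, and the processing compresses dim genes most. B2m, the invariant light chain of every class I molecule, had log2 signals of 12.04 (knockout CR), 12.91 (knockout AL), 12.02 (control CR) and 12.11 (control AL). As reported, 1 heart, the knockout AL heart, stood above the other 3, which lay within 0.09 of each other. B2m was thus lower with CR in knockout hearts by -0.87 on the log2 scale, and differed by -0.08 in control hearts. Knockout over control was 0.02 under CR and 0.81 under AL. The response of B2m to CR was 0.79 lower in knockout than in control hearts (knockout minus control, -0.79). With the local background subtracted, the difference with CR in knockout hearts was -0.49, under 1.5-fold, and B2m was 0.97 higher in the knockout AL heart than in the control AL heart. With median scaling between channels that genotype difference was 0.44, also under 1.5-fold. The closeness of the other 3 hearts also depended on the processing. Over the alternatives, knockout over control of B2m under CR lay between -0.26 and 0.38, the latter with the local background subtracted.

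Psmb8, a catalytic subunit of the immunoproteasome, was also highest in the knockout AL heart. Its log2 signal was 8.66 (knockout CR), 9.17 (knockout AL), 8.44 (control CR) and 8.42 (control AL). The knockout CR heart came next and the control hearts lay closest together. CR over AL was -0.51 in knockout hearts and 0.02 in control hearts, and knockout over control was 0.22 under CR and 0.76 under AL. Over all alternatives run, the genotype difference of Psmb8 under AL lay between 0.69 and 0.85.

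The other immunoproteasome members moved less. Psmb9, also catalytic, gave CR over AL of -0.35 in knockout and -0.05 in control hearts, and Psmb10, the remaining catalytic subunit, -0.12 and 0.03. Psme1, a subunit of the PA28 activator that opens the proteasome's core, was 0.32 lower in the knockout than in the control heart under CR (-0.32) and 0.26 lower under AL (-0.26), against the direction of the 3 catalytic subunits under AL. The standard proteasome genes listed for comparison were higher in the knockout AL than in the control AL heart in 5 of 5 cases (median 0.20), and the 4 immunoproteasome members in 3 of 4 (median 0.16).

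Of the peptide-loading genes, Tap2 differed by genotype under both diets. Tap2 had log2 signals of 7.93 (knockout CR), 7.81 (knockout AL), 7.56 (control CR) and 7.07 (control AL). Both knockout hearts lay above both control hearts, and the control AL heart was lowest. Knockout over control was 0.37 under CR and 0.74 under AL, and CR over AL was 0.12 in knockout and 0.49 in control hearts. Local background subtraction gave Tap2 0.99 under CR and 0.97 under AL for knockout over control, 0.19 for CR over AL in control hearts and 0.02 for the response difference. Tap1, its partner in the transporter, gave 0.29 for knockout over control under AL and -0.06 under CR. Tapbp differed by 0.01 under AL and -0.03 under CR, within the spread of the control spots. These small values rest on the treatment of the background: after local background subtraction Tapbp gave -1.29 under AL and -1.39 under CR, Psmb10 0.76 and 1.40, and Psme1 0.36 and 0.57.

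**Figure D2:**
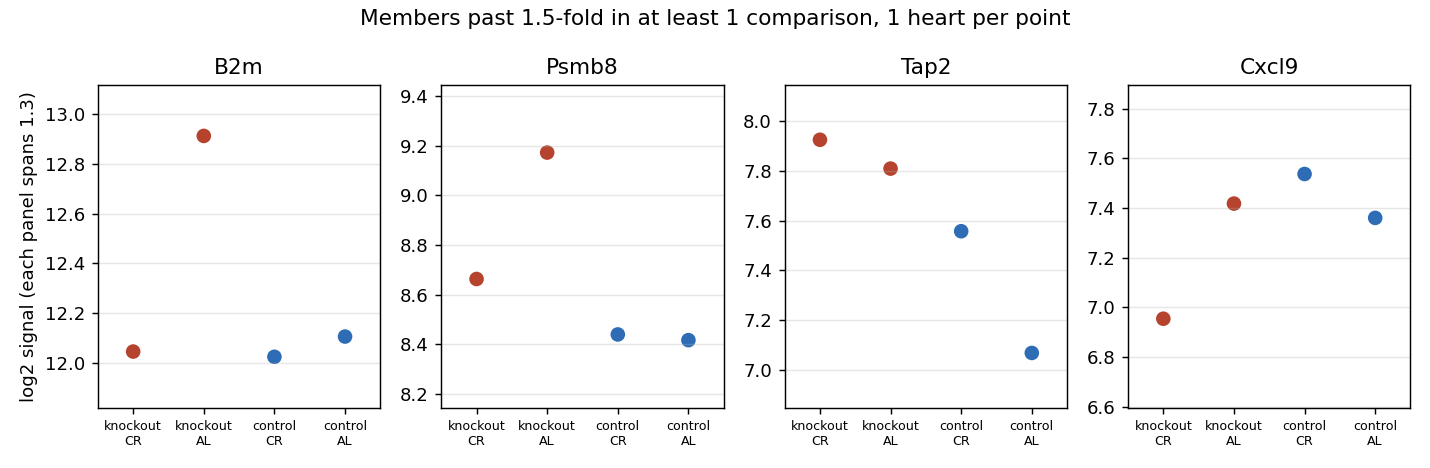
Log2 signal of B2m, Psmb8, Tap2 and Cxcl9, the members detected in every heart and past 1.5-fold in at least 1 comparison. Each point is 1 heart (red, knockout; blue, control), and every panel spans the same range of 1.3 log2 units at its own level. B2m and Psmb8 are highest in the knockout AL heart, Tap2 is lowest in the control AL heart and Cxcl9 is lowest in the knockout CR heart.

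Taken by comparison, CR in knockout hearts went with lower signals of most members. Of the 29 members compared, 20 were lower with CR, against 49.9% of all genes, with a median of -0.08 against 0.00 for all genes. After local background subtraction 18 were lower, against 53.7% of all genes, with a median of -0.05 against -0.01. Past 1.5-fold, B2m alone was lower and 0 members were higher, against 0.758% of all genes lower and 0.774% higher. The highest value was that of Ifit2, 0.14. Of the 29 differences 12 were smaller than the widest SD of the control spots, as were 50.4% of all genes'.

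In control hearts, 8 of 30 members were lower with CR and 22 higher, against 48.6% of all genes lower, with a median of 0.06. None was past 1.5-fold, against 0.822% of all genes higher and 0.340% lower, and the members lay between -0.27 (Bst2) and 0.49 (Tap2). After local background subtraction the control hearts gave 15 higher and 15 lower, against 54.6% of all genes lower.

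**Figure D3:**
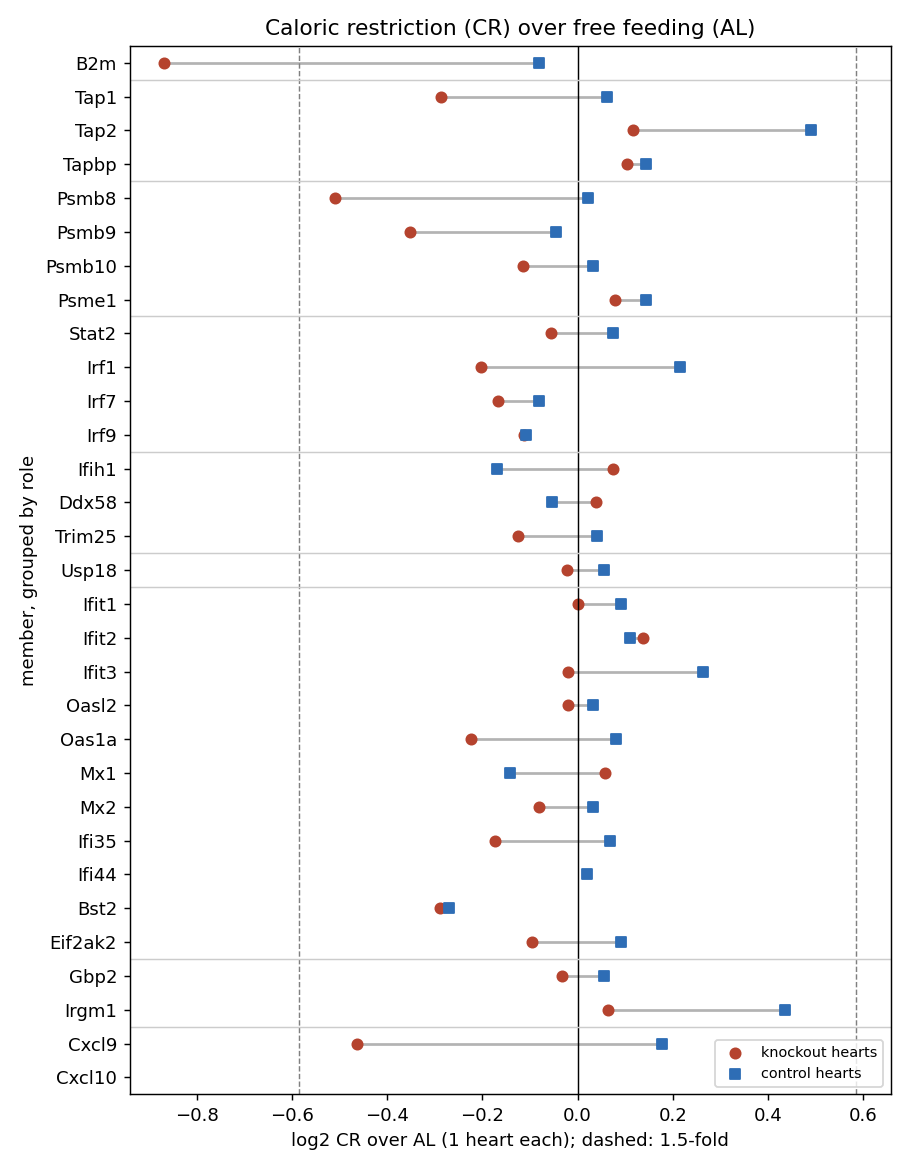
Log2 CR over AL of each member in knockout hearts (red circles) and control hearts (blue squares), 1 heart per diet and genotype. Dashed lines mark 1.5-fold, and a pair is joined where both were measured. B2m in knockout hearts (-0.87) is the only point past a dashed line.

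The response difference, CR over AL in knockout hearts minus CR over AL in control hearts, removes a dye effect that is equal on both arrays. It was lower than 0 for 25 of 29 members, against 51.0% of all genes, with a median of -0.13. B2m (-0.79) and Cxcl9 (-0.64) were past 1.5-fold on the low side and 0 members on the high side, against 0.521% and 0.393% of all genes. With the authors' deposited ratios B2m was at -0.57, under 1.5-fold. Local background subtraction left 1 member lower and 2 higher past 1.5-fold, against 2.2% and 3.27% of all genes. The class I genes were lower in 8 of 8 (median -0.33), the effectors in 8 of 10 (median -0.10) and the transcription factors in 4 of 4 (median -0.11). These counts depend on how the background was treated. With the local background subtracted 16 of 29 members were lower, against 48.9% of all genes, and 3 of the 8 class I genes. The effectors stayed at 8 of 10 there, and the transcription factors were lower in 2 of 4, and in 3 of 4 with offset 0.

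As reported, the members' median genotype difference was larger under AL than under CR, an order that turned with the local background subtracted (0.05 under AL and 0.14 under CR). Knockout over control under AL was higher for 27 of 31 members and lower for 4, against 47.4% of all genes lower, with a median of 0.12 against 0.01 for all genes. Past 1.5-fold, B2m (0.81), Psmb8 (0.76) and Tap2 (0.74) were higher, against 2.58% of all genes, and 0 members were lower, against 1.78%. The effectors were higher in 11 of 11, between 0.01 (Mx1) and 0.51 (Ifit3), the transcription factors in 4 of 4 and the class I genes in 7 of 8. The 3 sensors and Psme1 were the exceptions. The lead of the class I genes (median 0.25) over the effectors (0.12) depended on the background: with the blank mean subtracted the medians were 0.51 and 0.69. With offset 0, Ifit3 (1.18), Eif2ak2 (0.72), Tap1 (0.77), Oas1a (0.63), Ifi44 (0.62), Gbp2 (0.61) and Ifit2 (0.59) were also past 1.5-fold, and Ifih1 (-0.59) on the low side, against 6.79% of all genes higher and 5.39% lower. After local background subtraction, 17 of 31 members, 5 of 11 effectors and 2 of 4 transcription factors were higher, against 49.5% of all genes lower. Of the class I genes 7 of 8 were higher, with Tapbp the lower one in place of Psme1. Under CR, 14 of 29 members were higher and 15 lower, against 49.0% of all genes lower, with a median of -0.03. None was past 1.5-fold, against 1.45% of all genes higher and 1.09% lower. Cxcl9 (-0.583) lay just inside the threshold and Tap2 (0.37) was highest. Local background subtraction gave 17 of 29 members higher under CR, against 49% of all genes lower, and 7 of 8 class I genes higher (median 0.33). Psmb10 (1.40) and Tap2 (0.99) were then past 1.5-fold higher and Tapbp (-1.39) and Irgm1 (-0.60) past it lower, against 11.1% and 10.4% of all genes. The AL comparison, the CR response of knockout hearts and the response difference share the knockout AL heart, so that their counts are not separate observations.

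**Figure D4:**
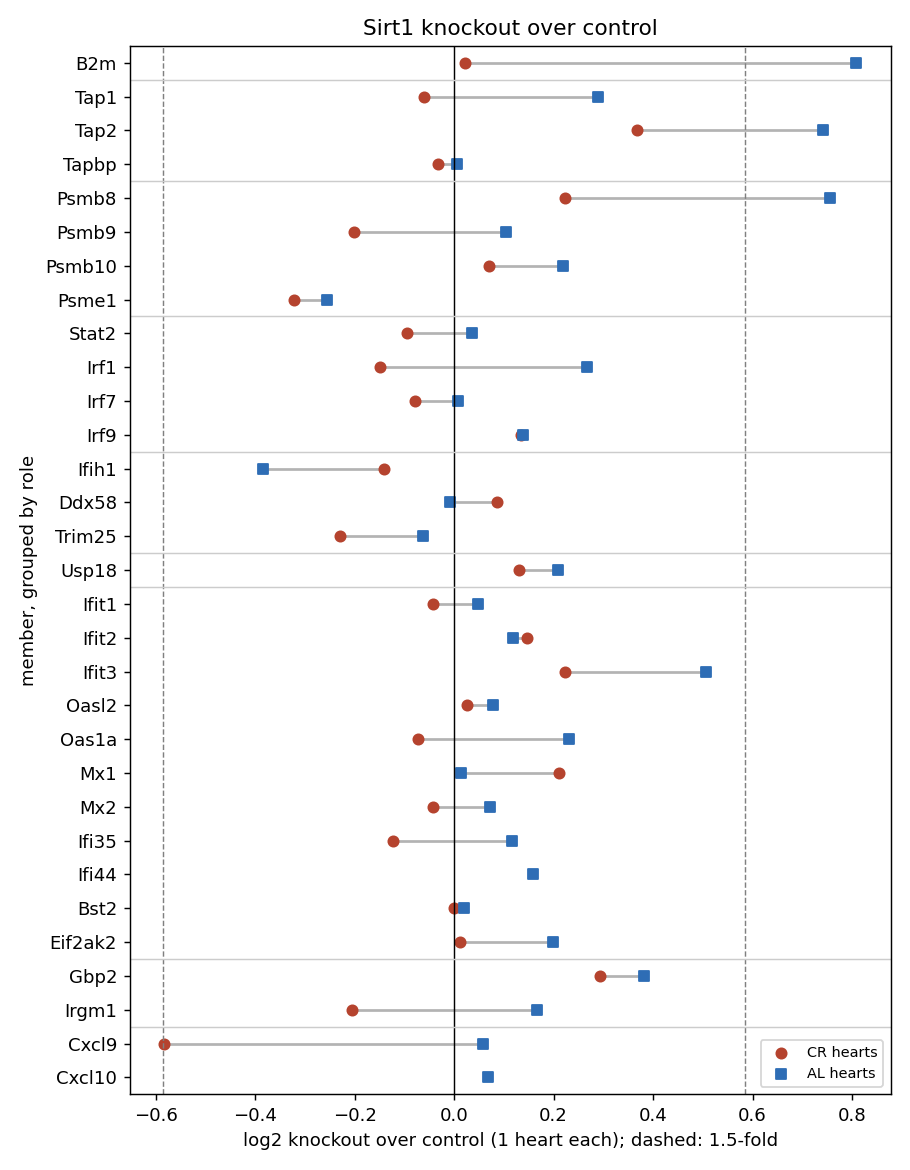
Log2 knockout over control of each member in CR hearts (red circles) and AL hearts (blue squares), 1 heart each. Dashed lines mark 1.5-fold. Under AL 27 of 31 members lie right of 0, and B2m, Psmb8 and Tap2 lie past the dashed line.

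The transcription factors differed by little. Stat2, a subunit of ISGF3, had log2 signals of 6.45 (knockout CR), 6.50 (knockout AL), 6.54 (control CR) and 6.47 (control AL), and these 4 values spanned 0.09. Irf9, the DNA-binding subunit of ISGF3, had 6.81, 6.93, 6.68 and 6.79 in the same order of hearts. It was lower with CR by -0.11 in knockout and by -0.11 in control hearts, so that its response difference was -0.0028. Irf7, the factor that amplifies type I interferon production, had 6.38, 6.55, 6.46 and 6.54, with CR over AL of -0.17 in knockout and -0.08 in control hearts. Irf1, a factor induced by interferon gamma that acts on class I genes, differed most of the 4. Its CR over AL was -0.20 in knockout and 0.21 in control hearts, and knockout over control was 0.27 under AL. The sign of these 3 values of Irf1 was the same in every alternative in which it was computed.

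Of the RNA sensors upstream of them, 1 differed under AL by more than the spread of the control spots. Ifih1 (MDA5) was 0.38 lower in the knockout than in the control AL heart (-0.38), the lowest member of that comparison, and Ddx58 (RIG-I) differed by -0.01. Trim25, the ubiquitin ligase that activates Ddx58, gave -0.06 under AL and -0.23 under CR. Ifih1 also had the highest response difference of all members, 0.24.

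Among the effectors, Ifit3 had the highest genotype difference under AL as reported. It gave knockout over control of 0.22 under CR and 0.51 under AL. Ifit2 gave 0.15 and 0.12 and Ifit1 -0.04 and 0.05, all dim. After local background subtraction Ifit3 gave -0.31 under CR and -0.01 under AL. Oas1a, which makes the messenger that activates RNase L, and Eif2ak2 (PKR), which halts translation on double-stranded RNA, gave 0.23 and 0.20 under AL and -0.07 and 0.01 under CR. Mx1, also dim, gave 0.21 under CR, 0.66 with offset 0 and -0.35 with the local background subtracted. As reported, Oasl2, Mx1 and Mx2 lay between 0.01 and 0.08 under AL, within the spread of the control spots. These values are compressed, and over all processing run Mx2 lay between 0.07 and 0.69 under AL. Oasl2 lay between -0.09 and 0.22 and Mx1 between -0.16 and 0.02. Ifi35, an interferon-induced protein, gave CR over AL of -0.17 in knockout and 0.07 in control hearts.

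Bst2 (tetherin), which holds budding virus at the cell surface, was lower with CR in both genotypes, by -0.29 in knockout and -0.27 in control hearts. Its genotype differences were 0.0005 under CR and 0.02 under AL. After local background subtraction its CR over AL was 0.03 in knockout and -0.52 in control hearts. Usp18, which removes Isg15 from proteins and restrains the type I receptor, gave 0.13 under CR and 0.21 under AL for knockout over control. Of the GTPases, Gbp2 was higher in knockout hearts by 0.29 under CR and 0.38 under AL, and Irgm1 was higher with CR by 0.06 in knockout and by 0.44 in control hearts. Gbp2 was lower in knockout hearts after local background subtraction, by -0.41 under CR and -0.28 under AL.

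The chemokines Cxcl9 and Cxcl10 draw T cells through the receptor Cxcr3. Cxcl9 had log2 signals of 6.95 (knockout CR), 7.42 (knockout AL), 7.54 (control CR) and 7.36 (control AL), so the knockout CR heart was lowest and the other 3 lay within 0.18. CR over AL was -0.46 in knockout and 0.18 in control hearts. After local background subtraction these values were 0.035 and -0.11, and the response difference was 0.15 in place of -0.64. Cxcl10 and the effector Ifi44 were not detected in every heart and have bounds only, measured against the higher of the dim heart's lowest detected signal and the gene's own signal there. Ifi44 was not detected in the knockout CR heart, and was at least 1.25-fold lower there than in the knockout AL heart and at least 1.14-fold lower than in the control CR heart. Cxcl10 was not detected in either CR heart. In knockout hearts it was at least 1.07-fold lower with CR than under AL. In control hearts its own CR signal was the value used, and the AL signal was 1.04 times it. Both lay near the blank spots, 4.7 (control CR) and 4.8 (control AL) scanner units over their mean, so that 1.04 shows no decrease.

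By the pattern over the 4 hearts, measured as the mean absolute difference of log2 signals after centring each gene, the members nearest to B2m were Psmb8 (0.12), Tap1 (0.22) and Gbp2 (0.24). Nearest to Irf7 were Ifi35 (0.05), Mx2 (0.05) and Psmb9 (0.06). The distances to Irf7 are small because these genes differed little over the hearts. Members with an ISRE core in their window had a median knockout over control under AL of 0.07 (10 of 13 higher) and those with a window and no core 0.12 (13 of 14 higher), a split made after the values were seen.

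Other genes of the pathway, listed by function, were counted in the same way. Of 114 such genes 91 had a probe and 81 were detected in all hearts. CR over AL in knockout hearts was lower for 60 of 85 and in control hearts for 42 of 81. Knockout over control was higher for 44 of 82 under CR and for 63 of 85 under AL, and the response difference was lower for 59 of 81. After local background subtraction the AL count was 47 of 85 and the response difference 48 of 81. Of 13 ligands 8 had a probe, 5 were detected in all hearts and 1 (Ifnk) in none. Receptors, kinases and sensors gave a median of 0.05 for knockout over control under AL (17 of 24 higher), and the other interferon-induced genes 0.12 (32 of 42 higher).

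Single genes of that list exceeded the members. Rtp4, an interferon-inducible chaperone of receptors, had log2 signals of 10.18 (knockout CR), 10.29 (knockout AL), 7.65 (control CR) and 7.56 (control AL). It was higher in knockout hearts by 2.54 under CR and 2.73 under AL, and hardly differed by diet (-0.11 in knockout and 0.09 in control hearts). Lgals3bp, a secreted glycoprotein, was the next highest under AL, 0.79. Iigp1, an immunity-related GTPase, had the lowest response difference, -0.91, with CR over AL of -0.63 in knockout and 0.28 in control hearts, and the lowest knockout over control under CR, -0.71, followed by Cd1d1 (-0.55), which presents lipids. Ifi27 was the lowest with CR in knockout hearts, -0.73.

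Mr1, a class I-like molecule that presents vitamin metabolites, was the highest with CR in knockout hearts, 0.52, and second under CR between genotypes, 0.62. Gbp6 followed with CR in knockout hearts, 0.52. In control hearts Slfn8 (0.56) and the receptor kinase Jak1 (0.49) were highest with CR, and Ifitm2 (-0.44), which blocks virus entry, and the signalling inhibitor Socs3 (-0.37) lowest. Canx, a chaperone of class I heavy chains, was lowest in knockout over control under AL (-0.62), followed by the kinase Tyk2 (-0.38). The response difference was next lowest in the phosphatase Ptpn2 (-0.57) and highest in Samd9l (0.29) and Jak2 (0.23).

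Markers of other cell types also differed between the hearts, in some comparisons in the members' direction and in others against it. In whole hearts, fewer cells of a type and less RNA per cell cannot be told apart. The 7 cardiomyocyte markers with a probe were all detected, and knockout over control under AL was higher for 5 of 7 (median 0.17). In the response difference 3 of the 7 were higher and 4 lower (median -0.06). Among them Myh6, the adult myosin heavy chain, lay furthest out, with 1.51 for knockout over control under AL and -1.02 in the response difference. Macrophage markers had a summed signal of 1101 (knockout CR), 1676 (knockout AL), 1026 (control CR) and 1318 (control AL), and 8 of 10 were detected in every heart. They were lower with CR in knockout hearts in 8 of 8 (median -0.31), higher in knockout over control under AL in 8 of 9 (median 0.24) and lower in the response difference in 7 of 8 (median -0.21). In control hearts they were lower with CR in 7 of 9 (median -0.10), where 22 of 30 members were higher. C1qa, a complement subunit made by macrophages, gave 0.81 for knockout over control under AL, and Tyrobp -0.40. Cd74 and H2-Aa of class II presentation were lower with CR in knockout hearts (-1.22 and -1.81) and in control hearts (-0.67 and -1.31), and 2 of 7 genes of that list were detected in every heart.

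Fibroblast markers, all 7 detected, were lower with CR in control hearts in 5 of 7 (median -0.21). In knockout hearts 6 of 7 were lower with CR (median -0.18), and in the response difference 6 of 7 were lower (median -0.24). Fibroblast markers were higher in the knockout AL than in the control AL heart in 6 of 7 (median 0.61). Their summed signals were 3130, 3937, 2792 and 3578 in the order of hearts used above. Neutrophil markers were higher in the knockout AL than in the control AL heart in 5 of 5 (median 0.41). Endothelial markers gave a median of -0.02 in that comparison and T and NK cell markers -0.05. For endothelium the response difference had a median of -0.12, where 1 of 8 genes was higher. The neutrophil median there was -0.26 over 4 genes, with 0 higher. Smooth muscle and pericyte genes gave -0.19 (1 of 6 higher), and T and NK cell genes 0.03 (2 of 3 higher). With CR in knockout hearts the endothelial median was -0.15 (2 of 8 higher). T and NK cell markers were near the floor: 3 of 10 were detected in every heart, Nkg7 in none, and their summed signals were 215, 214, 208 and 209. The part of these cell types in the values of the members was not tested.

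**Figure D5:**
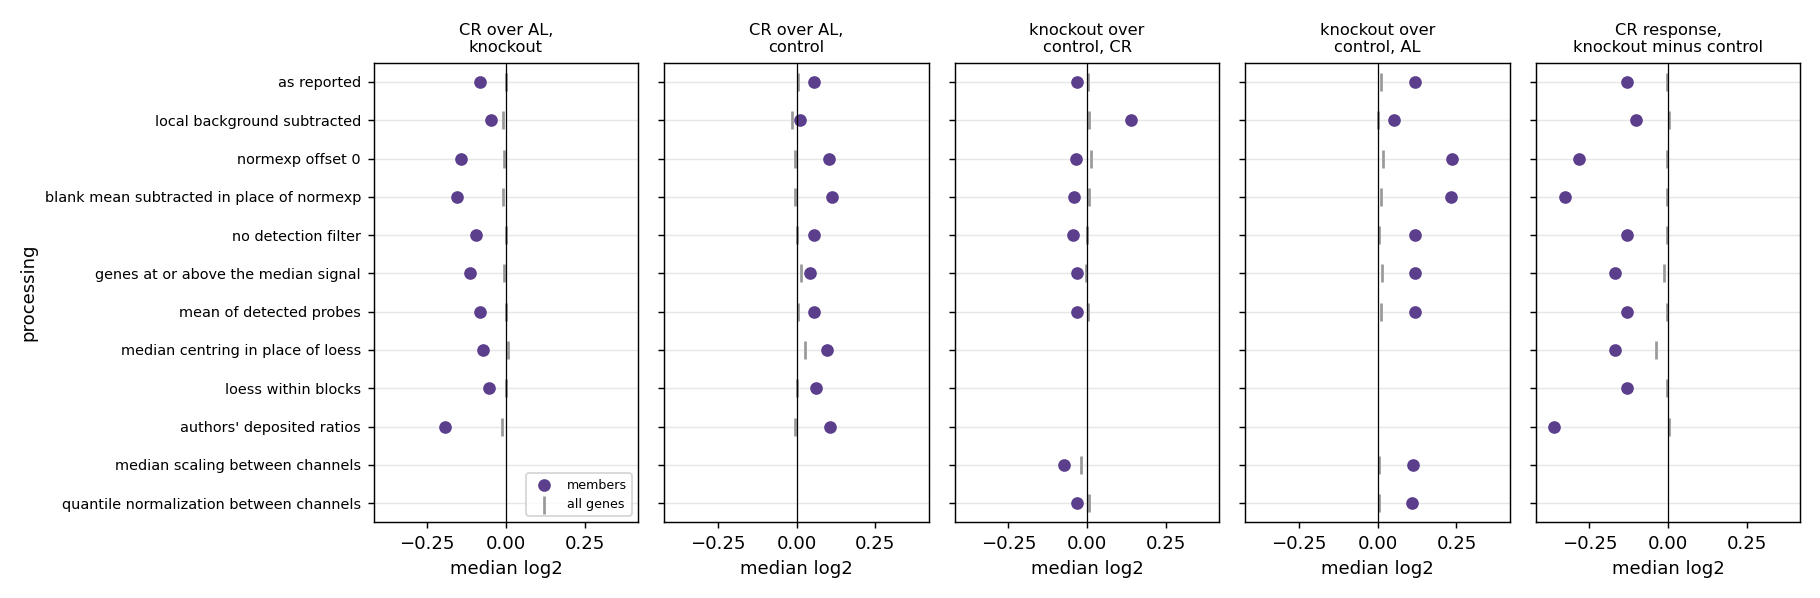
Median log2 value of the members (purple circles) and of all genes (grey bars) in each of the 5 comparisons, as reported and under 11 alternative treatments of the same scans. Rows with no point are alternatives that do not apply to that comparison. The members' median stays below 0 for CR over AL in knockout hearts and for the response difference, and above 0 for knockout over control under AL, in every alternative shown, while under CR it is 0.14 with the local background subtracted and at or below -0.03 otherwise.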

How the data were processed

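RNA of 4 mouse hearts was measured on 2 arrays. The deposited scanner files hold the median spot intensity at 532 nm (Cy3, CR) and 635 nm (Cy5, AL), per the file headers, and the table the authors deposited gives a log2 ratio of CR to AL for each probe, per the labels. The sources used here give neither the scanner software nor the location of the probes.

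Intensities were corrected with normexp (offset 50) without the local background, a choice that follows earlier work on these data, and normalized by loess within arrays and Aquantile between arrays in limma 3.58.1 (R 4.3.3), with control and marked spots at weight 0. A spot was detected where it exceeded the mean of 2736 blank spots, 5% left out at each end, by 2 SD, which held for 74.0% (knockout CR), 77.6% (knockout AL), 77.8% (control CR) and 80.7% (control AL) of 23473 probes. The number of arrays limits the precision. A symbol was given for 16631 probes, of which 12622 were current, 3945 were updated through the RefSeq table of GRCm38.p6 and 64 matched none. The remaining 6842 probes were left unnamed. The brightest probe stood for a gene. Irf9 is listed as Isgf3g and Irgm1 as Irgm.

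The members and lists were chosen with earlier results of these data known. Values in each heart are given for members past 1.5-fold in at least 1 comparison and for B2m, Stat2, Irf9 and Irf7; H2-K1, H2-D1 and Isg15 were also to be given and had no probe. For other pathway genes the 2 highest and 2 lowest per comparison are named, and for likeness the 3 nearest members. The scripts were tested on simulated data, on which true differences came out smaller, most for dim probes. In all, 11 alternatives were run.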

Additional observations from a re-analysis of the deposited data

Results flagged for a closer look

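Cxcl9 was singled out because its CR over AL values ran in opposite directions on the arrays and differed by more than 1.5-fold: -0.46 in knockout hearts and 0.18 in control hearts, a difference of -0.64. With 1 heart per condition this difference was not tested. It was 0.15 with the local background subtracted, and between -1.02 and -0.60 in the other alternatives.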

How the results depend on the processing

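Each group had 1 array channel, so no replicate could be left out. No paired analysis was possible because each group holds 1 heart. The members' median for CR over AL in knockout hearts was -0.19 with the authors' deposited ratios. For knockout over control under CR it was 0.14 with the local background subtracted, and under AL it was 0.23 with offset 0 and 0.23 with the blank mean subtracted. For the response difference it was -0.28 with offset 0, -0.33 with the blank mean subtracted and -0.36 with the authors' deposited ratios. Cxcl9 reversed in the response difference with the local background subtracted (0.15). The other medians moved by less than the widest SD of the control spots. Subtracting the local background turned the sign of 6 of 29 members for CR over AL in knockout hearts, 11 of 30 in control hearts, 15 of 29 for knockout over control under CR, 12 of 31 under AL and 11 of 29 in the response difference, and no other alternative turned more than 4. Members past 1.5-fold in the response difference were 8 lower with offset 0, 9 with the blank mean subtracted and 7 with the authors' deposited ratios, against 2 as reported (3.71%, 7.02%, 7.33% and 0.521% of all genes). With the local background subtracted 1 member was lower and 2 higher, against 2.2% and 3.27% of all genes. Members higher in knockout over control under AL were 10, 12 and 3 with offset 0, the blank mean subtracted and as reported (6.79%, 10.2% and 2.58% of all genes). Those lower with CR in knockout hearts were 5, 6, 6 and 1 with offset 0, the blank mean subtracted, the authors' deposited ratios and as reported (3.49%, 6.31%, 6.00% and 0.758% of all genes). Counts over all genes depended on the background: past 1.5-fold, knockout over control under AL gave 330 genes higher and 228 lower as reported, 1236 and 1220 with the local background subtracted, 868 and 689 with offset 0 and 1291 and 1097 with the blank mean subtracted. For the response difference 46 and 61 became 383 and 257, 389 and 434, and 758 and 821. CR over AL in knockout hearts gave 94 and 92 as reported and 953 and 729 with the authors' deposited ratios, and in control hearts 104 and 43, against 1112 and 575. Under CR, 173 and 130 became 1333 and 1243 with the local background subtracted. With median centring 41.0% of all genes were lower with CR in control hearts and 60.6% in the response difference. With median scaling, genes past 1.5-fold in knockout over control under CR split into 92 higher and 309 lower, and under AL into 248 and 384. Low signal over the blank spots limits most members, as it does most genes on these arrays.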
